A study of Mus musculus with 10 samples.

Results

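The Kruppel-like factors are zinc finger transcription factors, and 9 of them (Klf2, Klf3, Klf4, Klf6, Klf7, Klf10, Klf11, Klf12 and Klf13) were followed here by gene symbol among the 13252 genes of a mouse regulatory T cell (Treg cell) RNA-seq table. All 9 were present. A further 3 Klf genes in the table (Klf8, Klf9 and Klf16) are described beside them as relatives, and Klf1, Klf5, Klf14, Klf15, Klf17 and Klf18 were not analysed here. The libraries came from 2 sort gates of Treg cells: the Helios+ group (CD4+RFP+GFP+, 5 libraries) and the Helios- group (CD4+RFP+GFP-, 5 libraries), each numbered 1 to 5. Helios is the Ikaros family zinc finger factor encoded by Ikzf2. All cells shared the CD4 and RFP gates, and the sources used here state neither the strain, age and sex of the mice nor what RFP reports. The series' design text describes a Helios knockout against wild type, whereas the label of each sample describes a sort, so differences below are between 2 sorted populations. Nothing in the labels ties the 5 samples of a group to separate mice, and the spread behind every p-value may therefore be technical. In such bulk libraries, fewer cells expressing a gene and less RNA per cell cannot be told apart.

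Kruppel-like factors bind GC-rich and CACCC sequences through 3 zinc fingers at the C-terminal end, and differ mainly in the regions before these fingers. Klf3, Klf8 and Klf12 recruit the co-repressor CtBP. Klf9, Klf10, Klf11, Klf13 and Klf16 recruit the co-repressor SIN3A. Klf2, Klf4, Klf6 and Klf7 are mostly described as activators. In T cells, Klf2 is known as a factor of resting cells that maintains the genes for exit from and entry into lymphoid organs, and it is turned off after activation of the T cell receptor and PI3K signalling. Klf4 is known as a brake on lymphocyte proliferation, and Klf10 as a TGF-beta-induced factor that has been linked to Foxp3.

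The promoters of 3 members are shown because they belong to an abundant pair of factors that were lower in Helios+ cells, Klf2 and Klf13, and to the factor with the largest increase, Klf12. Each is the 250 bases before the RefSeq start site (GRCm38.p6), 5′ to 3′ on the strand of the gene. Capitals mark matches, on either strand, to GGGCGG (the GC box), CACCC (the core of Kruppel-like sites) or GTAAACA (a FOXO core), and matches of different motifs that overlap form a single run of capitals.
Klf2 (chr8:72318812-72319061, plus strand): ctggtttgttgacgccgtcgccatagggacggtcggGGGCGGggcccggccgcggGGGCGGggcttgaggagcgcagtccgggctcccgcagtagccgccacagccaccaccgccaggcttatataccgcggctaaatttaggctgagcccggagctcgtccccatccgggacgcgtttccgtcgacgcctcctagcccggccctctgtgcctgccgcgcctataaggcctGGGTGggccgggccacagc
Klf13 (chr7:63938916-63939165, minus strand): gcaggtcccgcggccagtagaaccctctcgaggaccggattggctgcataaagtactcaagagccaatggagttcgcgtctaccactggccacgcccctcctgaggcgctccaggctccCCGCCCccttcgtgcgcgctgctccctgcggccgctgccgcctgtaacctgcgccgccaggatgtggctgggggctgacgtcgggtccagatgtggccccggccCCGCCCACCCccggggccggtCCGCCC
Klf12 (chr14:100149797-100150046, minus strand): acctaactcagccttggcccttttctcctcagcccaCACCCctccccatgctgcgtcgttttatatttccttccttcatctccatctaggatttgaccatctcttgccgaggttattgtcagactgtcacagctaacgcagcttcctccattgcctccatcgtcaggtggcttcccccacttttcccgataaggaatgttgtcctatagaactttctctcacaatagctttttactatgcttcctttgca
The Klf2 promoter held 2 GC boxes and 1 CACCC. The Klf13 promoter held 3 GC boxes and 1 CACCC, of which 1 GC box and the CACCC share letters. The Klf12 promoter held 1 CACCC and no GC box, and its GC content was 48.0%, against 71.2% for Klf2 and 71.6% for Klf13. The median GC content of all promoters was 52.4%. Of 32851 promoters of this length, 32.7% held GGGCGG, 52.0% CACCC and 3.17% GTAAACA. Among the 8 members with a promoter in the table (all but Klf10), 7 held GGGCGG, 5 held CACCC and 0 held GTAAACA in these windows. Annotated exons covered all 250 bases of the Klf3 window, 102 of Klf7, 97 of Klf11 and 7 of Klf6. Exon bases were not counted for the other promoters of the 32851. Matches describe these letters and are not evidence of binding. Klf7 and Klf12 have further start sites in the GENCODE M21 annotation, which lie outside these windows. The Klf12 window lies inside the annotated gene, whose 5′ end is at 100284679. In that annotation Klf2 starts at 72319033, so the last 29 bases of its window are exon, and its CACCC lies within them.

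The family did not move in a single direction. Of the 9 members, 4 were lower in Helios+ cells (Klf2, Klf3, Klf7 and Klf13), 2 were higher (Klf10 and Klf12) and 3 did not pass the test (Klf4, Klf6 and Klf11), at a limma adjusted p under 0.05 over all genes. This fit used the group alone, without the replicate numbers. Klf4 and Klf12 reached the mean of 10 required for testing only through their Helios+ libraries. Among the 10718 genes tested, 24.8% were called, 10.7% as lower and 14.1% as higher, and the difference between this share and the 6 of 9 members was not tested. Shares called differed with abundance. Among genes with a mean of 500 to 5000, the range of Klf2, Klf3, Klf6 and Klf13, 19.8% were called lower and 10.7% higher. From 100 to 500, the range of Klf7 and Klf10, 9.99% were lower and 13.2% higher, and from 20 to 100, the range of Klf11, 5.86% were lower and 17.1% higher. The median log2 change of the members was -0.27, and that of all genes tested was -0.02. The groups did not overlap for 5 members (Klf2, Klf3, Klf7, Klf12 and Klf13), and for 19.5% of all genes tested. Once replicate numbers entered the limma fit as blocks, it also called Klf4 higher (adjusted p = 0.035) and Klf6 lower (adjusted p = 0.000833), beside 37.3% of all genes called, 18.9% higher and 18.5% lower.

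**Figure D1:**
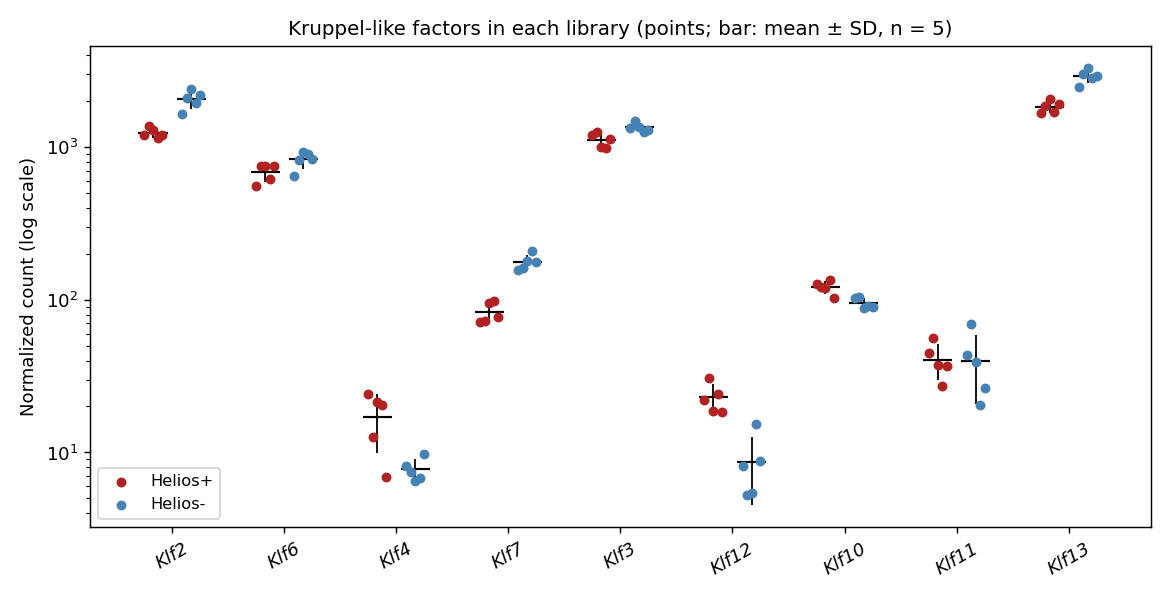
Normalized count on a log scale of the 9 Kruppel-like factors in each of the 5 Helios+ (left of each pair) and 5 Helios- libraries, with a horizontal bar for the mean and a vertical bar for the SD. Klf2, Klf13, Klf3 and Klf7 lie lower in all Helios+ libraries, Klf12 lies higher, and the groups overlap for Klf4, Klf6, Klf10 and Klf11.

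Among the activators, Klf2 (chromosome 8, 72319033 to 72321656, plus strand of mm10) was the most abundant per length and was clearly lower in Helios+ cells. Its normalized counts were 1195, 1380, 1284, 1141 and 1198 in Helios+ libraries 1 to 5, against 1649, 2082, 2393, 1944 and 2182 in Helios- libraries 1 to 5. Every Helios+ library lay below every Helios- library. The means were 1239 ± 93.8 in Helios+ and 2050 ± 277 in Helios- cells (SD, n = 5 each), which is 1.65-fold lower (log2 change -0.72 ± 0.09 SE, limma adjusted p = 2.27e-05).

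Klf7, a relative of Klf6 that has been linked to early T cell development in mice (chromosome 1, 64029447 to 64122282, minus strand), showed the largest decrease of the family. It had 71.3, 72.8, 94.9, 98.1 and 77.7 normalized counts in Helios+ libraries, against 157, 161.9, 180.2, 206.9 and 177.1 in Helios- libraries. The lowest Helios- library was thus well above the highest Helios+ library. The means of 82.9 ± 12.7 in Helios+ and 177 ± 19.6 in Helios- cells (SD, n = 5 each) differ 2.13-fold (log2 change -1.09 ± 0.12 SE, limma adjusted p = 6.69e-06). Of the Klf7 exon bases, 39.7% overlap other annotated genes, among them a noncoding RNA on the opposite strand, and the sources used here do not state whether counting used strand.

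Klf6, an immediate early gene of many tissues (chromosome 13, 5861482 to 5870394, plus strand), had lower values in every Helios+ library than in the Helios- library of the same number, but the groups overlapped. It had 555.4, 748.6, 746.1, 621.8 and 754.5 normalized counts in Helios+ libraries, against 643.1, 826.6, 932.8, 900.4 and 839.9 in Helios- libraries. Library 1 was the lowest of its group on both sides. The log2 change was -0.27 ± 0.11 (SE; limma adjusted p = 0.0852). Klf6 was called with the replicate block (limma adjusted p = 0.000833) and without Helios- library 1 (limma adjusted p = 0.00555). It was not called in the 9 other fits without a single library (limma adjusted p up to 0.194).

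Klf4 (chromosome 4, 55527143 to 55532466, minus strand) rested on few reads, with 90 over the 5 Helios+ libraries and 38 over the 5 Helios- libraries. It had 24.1, 12.5, 21.4, 20.4 and 6.95 normalized counts in Helios+ libraries, against 8.20, 7.41, 6.55, 6.84 and 9.73 in Helios- libraries. Helios+ library 5 lay within the Helios- range, and the other 4 lay above it. The log2 change was 0.94 ± 0.33 (SE; limma adjusted p = 0.0508). The gene was called by edgeR (adjusted p = 0.0218), by DESeq2 (adjusted p = 0.0149) and by limma without Helios+ library 5 (adjusted p = 0.00751). It was not called with quantile normalization (log2 change 0.50, limma adjusted p = 0.321). Nor was it called in the 9 other fits without a single library (limma adjusted p up to 0.127).

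The CtBP-binding factors went in opposite directions. Klf3, a repressor known from B cell and erythroid development in mice (chromosome 5, 64803388 to 64832901, plus strand), was slightly lower in Helios+ cells. Its normalized counts were 1191, 1254, 996.5, 985.1 and 1124 in Helios+ libraries, against 1335, 1483, 1358, 1259 and 1285 in Helios- libraries. The groups were separated by a narrow gap, between Helios+ library 2 and Helios- library 4. The means were 1110 ± 118 in Helios+ and 1344 ± 87.1 in Helios- cells (SD, n = 5 each), a 1.21-fold decrease (log2 change -0.28 ± 0.08 SE, limma adjusted p = 0.0152), and quantile normalization ended the call (adjusted p = 0.0564).

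Klf12, first described as a repressor of the AP-2 alpha gene (chromosome 14, 99870632 to 100284679, minus strand), was higher in Helios+ cells from a low level. It had 22.0, 30.9, 18.8, 24.3 and 18.5 normalized counts in Helios+ libraries, against 8.20, 5.29, 5.46, 15.4 and 8.76 in Helios- libraries. No library of the groups crossed. The means of 22.9 ± 5.08 in Helios+ and 8.62 ± 4.10 in Helios- cells (SD, n = 5 each) differ 2.66-fold (log2 change 1.38 ± 0.30 SE, limma adjusted p = 0.00287). Klf12 reached the mean of 10 required for testing only through its Helios+ libraries, a selection that favours a call in this direction. Among the 772 genes with a mean of 10 to 20, the range of Klf12 and Klf4, 19.6% were called higher and 4.27% lower. Klf8, the third CtBP-binding relative, had 17.8, 14.2, 12.8, 19.4 and 12.7 normalized counts in Helios+ libraries, against 2.34, 3.18, 4.37, 2.57 and 5.84 in Helios- libraries. Its mean over all libraries was under 10, so it was not tested, and its groups did not overlap.

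Among the SIN3A-binding factors, Klf13 (chromosome 7, 63886351 to 63938915, minus strand) had the highest normalized counts of the family and was lower in Helios+ cells. It is known for binding the Ccl5 promoter in T cells. Its normalized counts were 1661, 1857, 2057, 1702 and 1900 in Helios+ libraries, against 2481, 3005, 3300, 2811 and 2932 in Helios- libraries. Every Helios+ library was below every Helios- library. The means were 1835 ± 160 in Helios+ and 2906 ± 298 in Helios- cells (SD, n = 5 each), 1.58-fold lower (log2 change -0.66 ± 0.08 SE, limma adjusted p = 2.08e-05). Ccl5 itself, the gene of the chemokine RANTES, was higher, at 118 ± 24.9 in Helios+ and 53.1 ± 15.4 normalized counts in Helios- cells (SD, n = 5 each; log2 change 1.16 ± 0.19 SE, limma adjusted p = 0.000298). Whether the changes of Klf13 and Ccl5 are linked was not tested.

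Klf10 (TIEG1; chromosome 15, 38291463 to 38300706, minus strand) was a little higher in Helios+ cells. It had 126.8, 121.3, 119.6, 135.0 and 102.0 normalized counts in Helios+ libraries, against 103.1, 104.8, 88.5, 91.5 and 89.5 in Helios- libraries. Helios+ library 5 fell just below the 2 highest Helios- libraries. The log2 change was 0.34 ± 0.11 (SE; limma adjusted p = 0.0336), the smaller of the 2 increases called, and the call was lost in 7 of the 10 fits that left out a single library, with adjusted p up to 0.0903. These were the fits without Helios+ library 1, 2, 3 or 4 or Helios- library 3, 4 or 5. Klf11 (chromosome 12, 24651274 to 24662789, plus strand), the nearest relative of Klf10, had 45.1, 56.0, 37.6, 27.2 and 37.1 normalized counts in Helios+ libraries, against 43.3, 69.9, 39.3, 20.5 and 26.3 in Helios- libraries. Both groups spanned much the same range, and library 2 was the highest and library 4 the lowest on each side. Its log2 change was 0.11 ± 0.29 (SE; limma adjusted p = 0.824).

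The relatives Klf9 and Klf16 completed this group. Klf9, a glucocorticoid- and thyroid hormone-responsive factor, had 91.2, 236.7, 104.3, 70.9 and 69.5 normalized counts in Helios+ libraries, against 48.0, 86.8, 35.0, 35.1 and 22.4 in Helios- libraries. It was higher in 5 of 5 pairs, with library 2 the highest on each side, and its log2 change was 1.30 ± 0.38 (SE; limma adjusted p = 0.0238). Without Helios- library 1, 3 or 5 its adjusted p went up to 0.0732, and with the replicate block its limma adjusted p was 1.82e-07. Klf16 averaged 108 ± 21.1 in Helios+ and 112 ± 20.2 normalized counts in Helios- cells (SD, n = 5 each) and was not called (limma adjusted p = 0.815).

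Per kilobase of exon, the family was dominated by the same 4 genes in both populations. Klf2 stood at 671 ± 50.8 in Helios+ and 1110 ± 150 normalized counts per kb in Helios- cells (SD, n = 5 each). Klf13 followed at 275 ± 23.9 in Helios+ and 436 ± 44.7 in Helios- cells, then Klf3 at 206 ± 22.0 in Helios+ and 249.5 ± 16.2 in Helios- cells. Klf6 stood at 162 ± 21.6 in Helios+ and 196 ± 26.6 in Helios- cells. Within each population the ranges of these 4 genes did not touch. Klf16 came next, at 40.3 ± 7.88 in Helios+ and 41.9 ± 7.57 in Helios- cells, and overlapped Klf10 in Helios+ libraries. The order below it differed, since Klf7 was eighth with 10.3 ± 1.57 in Helios+ cells, next to and overlapping Klf11 at 9.94 ± 2.62, while in Helios- cells it was seventh with 21.9 ± 2.43, overlapping Klf10 at 24.9 ± 2.04. Klf4, Klf12 and Klf8 were the lowest in both, and neighbours among them overlapped. Summed over the 12 Klf genes, the level per kb ranged from 1330 to 1601 in Helios+ and from 1776 to 2385 in Helios- libraries. Klf2 made up 46.5% ± 0.65 of this sum in Helios+ and 52.6% ± 1.84 in Helios- cells (SD, n = 5 each).

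**Figure D2:**
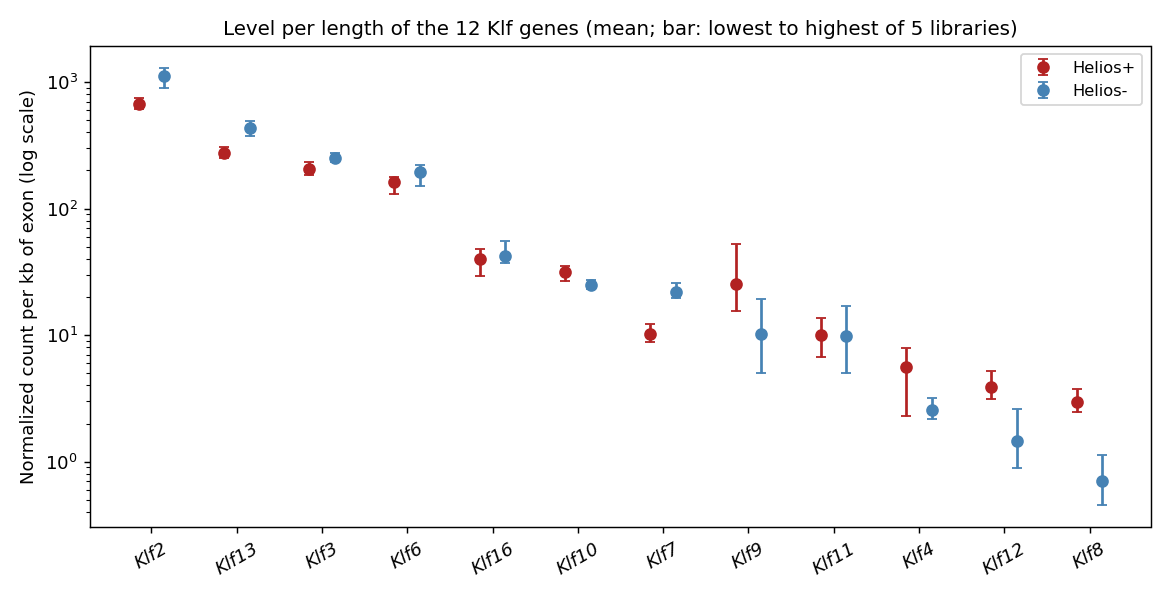
Normalized count per kilobase of exon on a log scale for the 12 Klf genes, ordered by their level in Helios- cells. Points are means and bars run from the lowest to the highest of the 5 libraries, with Helios+ left of Helios-. Klf2 is the highest in both populations, at 671 in Helios+ and 1110 in Helios- cells.

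Differences between libraries of equal number gave the same picture with finer detail. Klf13 was the most even, with log2 differences from -0.72 to -0.58, and Klf7 ranged from -1.18 to -0.92. Klf2 ranged from -0.90 in pair 3 to -0.47 in pair 1. Klf3 and Klf6 were lower in 5 of 5 pairs, down to -0.45 in pair 3 for Klf3 and to -0.53 in pair 4 for Klf6. Klf10 was higher in 5 of 5 pairs, by 0.19 to 0.56, and Klf12 by 0.63 to 2.34. Klf4 was higher in 4 of 5 pairs, with -0.43 in pair 5, and Klf11 was higher in 3 and lower in 2.

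**Figure D3:**
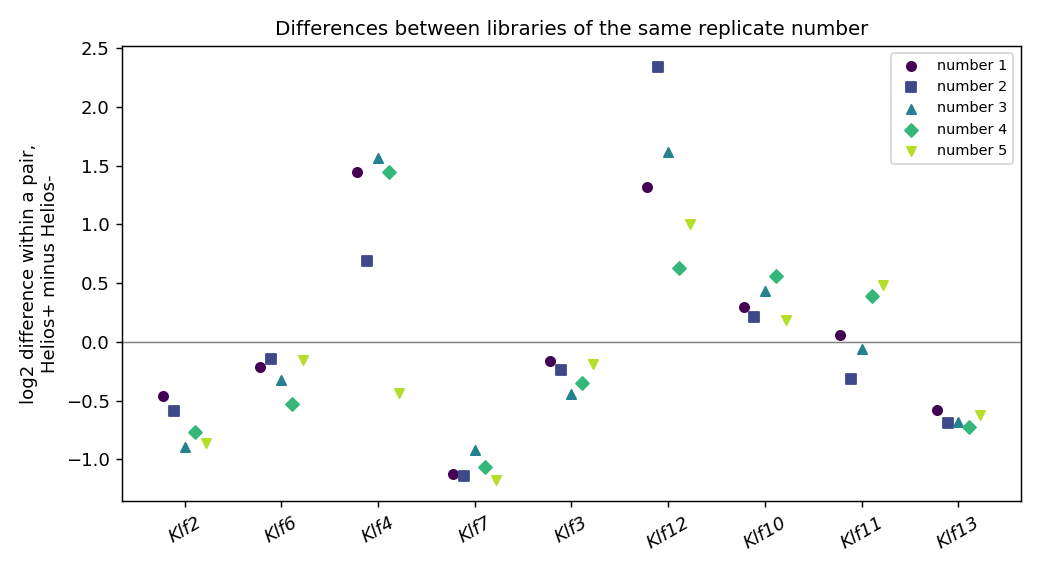
Log2 difference of normalized count + 1, Helios+ minus Helios-, within each of the 5 replicate numbers (1 symbol each) for the 9 members. Klf2, Klf3, Klf6, Klf7 and Klf13 are below 0 in all 5 pairs, Klf10 and Klf12 are above 0 in all 5, and Klf4 and Klf11 are on both sides.

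**Figure D4:**
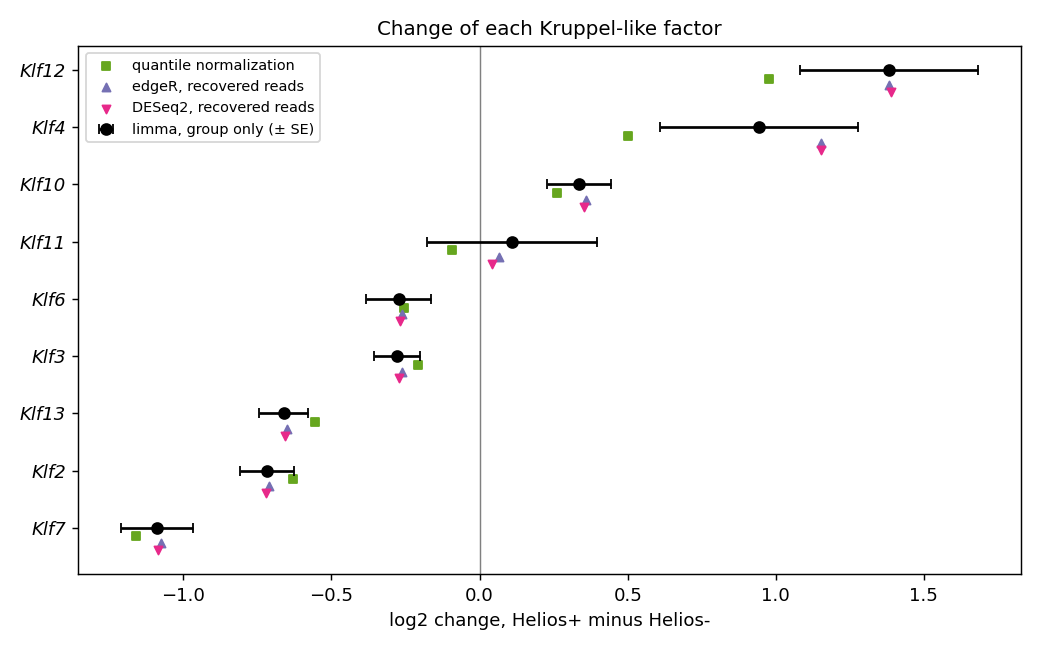
Log2 change, Helios+ minus Helios-, of the 9 members by limma with its SE (black), and under quantile normalization, edgeR and DESeq2. The members run from Klf12 at 1.38 to Klf7 at -1.09, and Klf11 is the only member whose sign changes among the tests drawn.

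Of 5 genes described here that are reported to be promoted by Klf2 in mouse T cells, 4 were tested. Of these 4, 3 were lower and 1, Prdm1, was higher, with a median log2 change of -0.51. Some genes of this list are not reported here. Beside this list and those that follow stand 10.7% of all genes tested called lower and 14.1% called higher. With the replicate block these shares were 18.5% lower and 18.9% higher. No share over all genes was taken for counts before adjustment. Among genes with a mean of 500 to 5000, where S1pr1, Ccr7 and Itgb7 lie, 19.8% were called lower. The difference from these shares was not tested. S1pr1, the sphingosine 1-phosphate receptor for exit from lymphoid organs, had 1412, 1323, 1619, 1385 and 1605 normalized counts in Helios+ libraries, against 1940, 2074, 2737, 2483 and 2697 in Helios- libraries (log2 change -0.69 ± 0.10 SE, limma adjusted p = 8.78e-05). The chemokine receptor Ccr7 had 500.4 ± 59.7 in Helios+ and 834.5 ± 151 in Helios- cells (SD, n = 5 each; log2 change -0.72 ± 0.12). Itgb7, the integrin beta 7 subunit, had 1728 ± 84.3 in Helios+ and 2179 ± 159 in Helios- cells (log2 change -0.33 ± 0.07). For each of these 3 genes no Helios+ library reached the Helios- range. Prdm1, which encodes Blimp-1, had 187 ± 22.9 in Helios+ and 122 ± 10.4 in Helios- cells (log2 change 0.60 ± 0.11). Cdkn1a, with a mean of 3.27 in Helios+ and 1.28 in Helios- cells, was too low to be tested.

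Of 4 genes described here that are reported to be restrained by Klf2, 3 were higher in Helios+ cells and 1 was not called. Their median log2 change was 0.76, and this list is also partial. Among all genes tested 14.1% were called higher, and 19.6% of those with a mean of 10 to 20, where Ccr3 lies. The chemokine receptor Cxcr3 had 155.1, 136.3, 171.8, 139.9 and 178.5 normalized counts in Helios+ libraries, against 35.1, 40.2, 56.8, 41.0 and 44.8 in Helios- libraries, 3.59-fold higher (log2 change 1.83 ± 0.14 SE, limma adjusted p = 1.27e-07). The groups were far apart. Cxcr5, the follicle homing receptor, rose by 0.42 ± 0.09 and Ccr3 by 1.11 ± 0.28 on the log2 scale. Ccr3, with a Helios- mean of 7.96, reached the mean of 10 required for testing only through its Helios+ libraries. Myc was not called (log2 change 0.21 ± 0.16, limma adjusted p = 0.385).

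**Figure D5:**
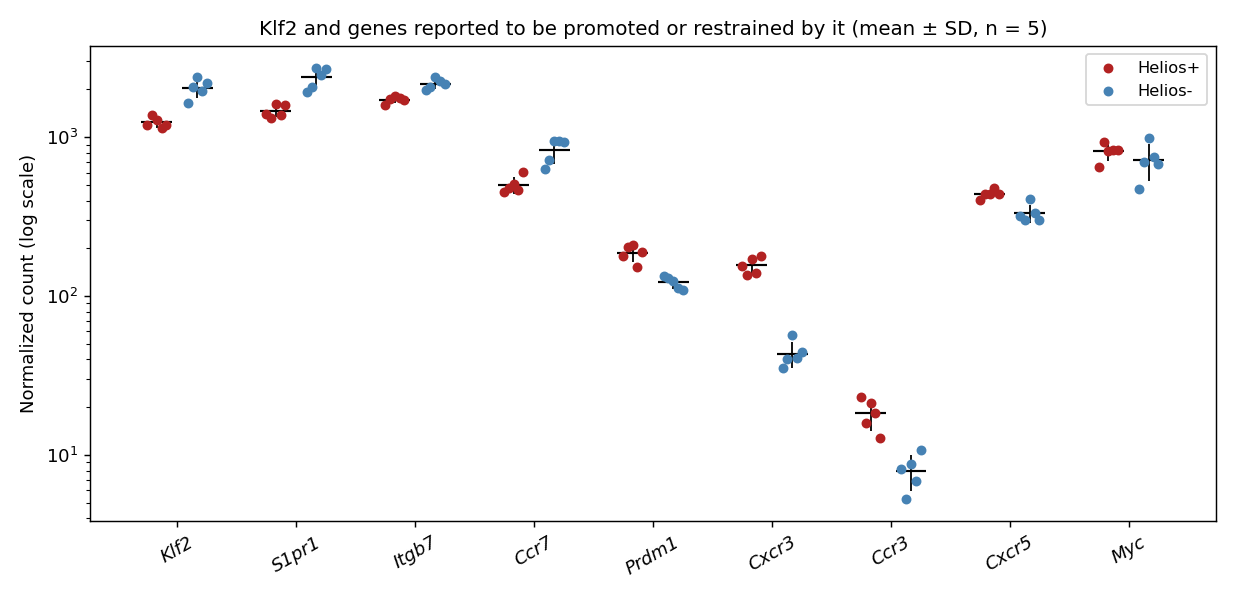
Normalized count on a log scale of Klf2, of 4 genes reported to be promoted by it (S1pr1 to Prdm1) and of 4 reported to be restrained by it (Cxcr3 to Myc), in each of 5 Helios+ (left) and 5 Helios- libraries, with mean and SD. Klf2, S1pr1, Itgb7 and Ccr7 lie lower and Prdm1, Cxcr3 and Ccr3 higher in all Helios+ libraries, and the groups overlap for Cxcr5 and Myc.

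Upstream of Klf2, 14 genes of FOXO, PI3K, ERK5 and MEF2 signalling were tested. Of these, 4 were lower (Foxo1, Pik3cd, Sgk1 and Mef2a) and 0 higher by limma, with a median log2 change of -0.13. At p under 0.05 before adjustment 1 was higher and 6 were lower, and edgeR and DESeq2 each called 0 higher and 4 lower. Mef2a, a MEF2 factor, had 352 ± 20.7 in Helios+ and 486 ± 38.9 normalized counts in Helios- cells (SD, n = 5 each; log2 change -0.46 ± 0.07 SE, limma adjusted p = 0.000254). Foxo1, the forkhead factor that drives Klf2 transcription in T cells, had 1619 ± 146 in Helios+ and 2068 ± 350 in Helios- cells (log2 change -0.34 ± 0.11 SE, limma adjusted p = 0.0288). Its call was lost in 5 of the 10 fits without a single library, and with the replicate block its limma adjusted p was 7.96e-06. The PI3K catalytic subunit Pik3cd changed by -0.40 ± 0.08 and the kinase Sgk1 by -0.60 ± 0.11. The regulatory subunit Pik3r1 (-0.07 ± 0.16) and Elf4, an ETS factor that activates Klf2 and Klf4 in CD8 T cells (-0.08 ± 0.07), were not called. With the replicate block, 7 of the 14 were lower and 1 was higher, beside 18.5% of all genes lower and 18.9% higher. Pik3ip1, a PI3K inhibitor named after its values were seen, had 487.3, 748.6, 320.5, 258.4 and 322.2 normalized counts in Helios+ libraries, against 863.3, 1319, 646.6, 539.5 and 569.3 in Helios- libraries. It was lower in 5 of 5 pairs, while its groups overlapped (limma adjusted p = 0.0775, and 3.63e-11 with the replicate block).

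TGF-beta signalling genes, which act upstream of Klf10 and Klf11, were divided. Of 9 tested, 1 was higher (the receptor Tgfbr1) and 4 were lower (Smad2, Smad3, Smad4 and the inhibitory Smad7), with a median log2 change of -0.22. Tgfbr1 had 846 ± 104 in Helios+ and 518 ± 13.7 normalized counts in Helios- cells (SD, n = 5 each; log2 change 0.70 ± 0.08). Smad7 had 754 ± 54.5 in Helios+ and 1071 ± 75.6 in Helios- cells (log2 change -0.51 ± 0.07). The changes of Ski (-0.02 ± 0.07), Tgfbr2 (-0.22 ± 0.09) and Skil (0.18 ± 0.09) did not pass, although Tgfbr2 (adjusted p = 0.0011) and Skil (adjusted p = 0.00366) were called with the replicate block. The block gave 3 higher and 5 lower, beside 18.9% of all genes higher and 18.5% lower.

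No co-repressor subunit passed the test. Of 8 co-repressor subunits tested, limma called 0, with 1 higher at p under 0.05 before adjustment, 1 higher by edgeR, 0 by DESeq2 and 2 higher with the replicate block, and their median log2 change was -0.02. The log2 change was -0.02 ± 0.08 for Sin3a, -0.07 ± 0.09 for Ctbp1, -0.06 ± 0.09 for Rbbp4 and 0.22 ± 0.08 for Hdac1. Of 4 acetyltransferases, 2 were lower, Kat2b (PCAF) by -0.45 ± 0.10 and Crebbp (CBP) by -0.22 ± 0.07, and Ep300 (-0.15 ± 0.06) and Kat2a (-0.26 ± 0.09) were not called. The block called all 4 lower, beside 18.5% of all genes, and the Crebbp call was lost in 4 of the 10 fits without a single library. Among 4 ubiquitin ligases reported to act on Kruppel-like factors, Smurf1 had 332 ± 17.4 in Helios+ and 506 ± 40.0 normalized counts in Helios- cells (SD, n = 5 each; log2 change -0.60 ± 0.07 SE, limma adjusted p = 1.41e-05). Wwp1 was higher by 0.42 ± 0.09, Itch was lower (log2 change -0.24 ± 0.07, lost in 4 of the 10 fits without a single library), and Fbxw7 was not called (-0.14 ± 0.07). With the replicate block the limma adjusted p of Itch was 0.00201.

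The Sp factors, which share the zinc finger type and bind GC boxes, had 4 of 5 tested genes called lower (Sp2, Sp3, Sp4 and Sp6), beside 10.7% of all genes, or 19.8% of those with a mean of 500 to 5000, where Sp3 and Sp4 lie. The difference between these shares was not tested, here or for the other lists, and Sp1 was not called (log2 change -0.07 ± 0.08). Sp3 had 1394 ± 94.0 in Helios+ and 1641 ± 147 normalized counts in Helios- cells (SD, n = 5 each; log2 change -0.23 ± 0.07 SE, limma adjusted p = 0.0288). The Sp3 call was lost in 5 of the 10 fits without a single library, and with the replicate block its limma adjusted p was 0.000762. Sp2 changed by -0.31 ± 0.08 and Sp4 by -0.23 ± 0.06. Sp6 had 53.0 ± 15.8 in Helios+ and 181 ± 67.0 in Helios- cells, but 86.7% of its exon bases overlap another gene. Among 8 other genes of T cell quiescence, 2 were lower, the forkhead factor Foxp1 by -0.62 ± 0.06 and Slfn2 by -0.31 ± 0.09, and Btg1 (-0.07 ± 0.11) and Il7r (0.03 ± 0.55) were not called.

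Profiles most like each member were sought among genes with a mean of at least 50, by the root mean square (RMS) difference over the 10 libraries of centred log2 values, a measure that favours genes with a group difference of equal size. For Klf2 the nearest was Lef1, a TCF family factor, with an RMS difference of 0.0582 on the log2 scale and a log2 change of -0.72, followed by Dusp7 and Plxna1. For Klf13 they were Chst10 (0.0585), St8sia6 and Plxna1, so Plxna1 was near to both. For Klf7 they were the TGF-beta co-receptor gene Tgfbr3 (0.144), St8sia1 and Gm15708. For Klf3 they were Auh (0.0642), Epc1 and Zfp292, and for Klf6 they were Manf (0.0578), Cnp and 2810008M24Rik. For Klf10 they were Faah (0.0766), Nf2 and Zdhhc21, and for Klf11 Bbc3 (0.192), Serinc3 and Arl5a. The low genes had no close neighbour, with Whrn at 0.340, Pros1 and Tert for Klf4, and Ptprs at 0.320, Angptl2 and Capn3 for Klf12.

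Several measures of the samples stand beside these values. Ikzf2 had 10367 ± 456 in Helios+ and 487 ± 56.5 normalized counts in Helios- cells (SD, n = 5 each; exact two-sided permutation p = 0.00794, the smallest that 252 assignments can give). Recovered reads ranged from 4872348 to 6948692 per library, and the ribosomal RNA precursor Rn45s took 8.54% to 18.6% of them. Of 10 immediate early and cell handling genes tested, 4 were higher in Helios+ cells (Junb, Egr1, Dusp1 and Nr4a1) and 1, Zfp36, was lower, Jund was not called (log2 change 0.02 ± 0.26), and the summed level of the list was 3493 to 4696 in Helios+ and 2702 to 4391 in Helios- libraries. Klf4, Klf6 and Klf10 are themselves known as early response genes, and the part of cell handling in their values was not tested. T cell and Treg cell markers (CD3 and CD4 genes, Foxp3, Il2ra and Ctla4) summed to 18403 to 21906 in Helios+ and 16024 to 20916 normalized counts in Helios- libraries. Of these 7 genes, 2 were called higher (Il2ra and Ctla4), or 4 with the replicate block (also the general T cell genes Cd3e, adjusted p = 0.00773, and Cd3g, adjusted p = 0.00741). Foxp3 was not called (log2 change 0.02 ± 0.07 SE, limma adjusted p = 0.879). B cell markers summed to 898 to 1208 in Helios+ and 963 to 1361 normalized counts in Helios- libraries, with 0 of 4 called by limma, 0 before adjustment, 0 by edgeR and DESeq2 and 1 lower with the replicate block (Pax5). Macrophage and monocyte markers summed to 347 to 662 in Helios+ and 249.8 to 436 in Helios- libraries, and 1 of 6 was called higher (Csf1r), or 2 with the replicate block (also Lyz2, adjusted p = 0.0175). Of the endothelial markers, Cdh5 and Kdr were near 0, at 1.35 and 4.62 in Helios+ and 3.35 and 1.86 in Helios- cells on average, and Pecam1, which naive T cells also express, was lower in Helios+ cells (log2 change -0.96 ± 0.06). CD8 T cell and NK cell markers summed to 369 to 423 in Helios+ and 396 to 479 in Helios- libraries, and 1 of 4, Cd8b1, was called lower with the replicate block (adjusted p = 0.0111) but not without it (limma adjusted p = 0.0755). Neutrophil markers summed to 35.1 to 118 in Helios+ and 23.3 to 113 in Helios- libraries. Dendritic cell markers summed to 66.1 to 85.9 in Helios+ and 52.6 to 83.0 in Helios- libraries, and erythroid markers to 0.836 to 15.7 in Helios+ and 0 to 19.7 in Helios- libraries. The part of RNA from other cells in the Klf differences was not tested.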

How the data were processed

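RNA-seq libraries of 10 sorted Treg cell samples were made from total RNA with a stranded kit for picogram input, per the labels' protocols. The submitters' processing notes name mm10, HISAT2 2.0.4, HTSeq and DESeq2 without roles. The sources used here name no annotation, strand setting or gene filter. The authors deposited 1 table of normalized counts, a signal that is never negative. In each library 100% of the values were whole numbers of reads times a single factor (tolerance 0.001), from which the reads were recovered.

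Genes with a mean of at least 10 were tested (10718, leaving out 2534) by limma 3.58.1 (R 4.3.3; mean-variance trend, robust) on log2 values of the normalized count + 1, with Benjamini-Hochberg adjustment over all of them. All 9 members passed this filter. Klf4 and Klf12 passed it only through their Helios+ libraries, since their Helios- means were 7.75 and 8.62. The same holds for Ccr3, with a Helios- mean of 7.96. Changes are Helios+ minus Helios- and are understated for low genes. Alternatives were a replicate block, pseudocounts 0.5 and 5, no filter or a mean of 50, TMM, quantile normalization, edgeR 4.0.16 and DESeq2 1.42.0 on the recovered reads, and leaving out each library. The scripts were tested on simulated data. Replicate numbers were taken to pair samples, because the deviations of equal numbers from their group means correlated at 0.15 to 0.48 in all 5 pairs, with a minimum of 0.1 required and a median of -0.03 between unequal numbers. The main limma fit used the group alone and left this pairing out, whereas the replicate block took it in. Pairs of libraries within a group differed by more than sampling noise (chi-square per degree of freedom 3.67 to 55.8). Positions and exon lengths are from GENCODE M21 (GRCm38, equal to mm10), where 120 of the 121 genes looked up matched a single gene. The members and gene lists were chosen with earlier results of these data known. Some genes of the Klf2 and marker lists are not reported here and are left out of the counts and medians of these lists, whose shares in each direction are therefore not those of the full lists. Genes were named by rule: all Klf genes, the 4 most abundant members of each pathway list, members of counts of 5 or fewer, and the 3 nearest profiles of each member. Pik3ip1 and single cell type markers were named after their values were seen, and marker lists are otherwise given as sums and counts.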

Additional observations from a re-analysis of the deposited data

Results flagged for a closer look

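A check covered 103 of the genes named in the text, each in both groups of 5 libraries. In it, 12 values stood apart from the other 4 of their group. This means that the gap to the nearest value was over 0.71 of the whole range. Chance gives about 1 in 20 groups, and 206 groups were checked. None of the 9 members was among them. Helios+ library 2 was high for Klf9 (236.7 normalized counts), Sgk1 (98.69) and Ctla4 (2031). Helios- library 2 was high for Dusp1 (156.7), Pik3r1 (4653) and Bbc3 (185.2). Helios- library 3 was high for Klf16 (147.5), Sgk1 (143.1) and Cdkn1a (4.37). Helios+ library 1 was high for Lyz2 (321.7) and low for Sp4 (576.3), and Helios- library 4 was low for Itch (737.1).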

How the results depend on the processing

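Klf2, Klf7, Klf12 and Klf13 kept their direction and call under every alternative that tested them (Klf12 is left out by a mean of at least 50), the 10 fits without a single library included. For the other members, log2 changes are given with the alternative. Klf3 lost its call with quantile normalization (-0.21). Klf10 lost it with quantile normalization (0.26), and its change ran from 0.29 to 0.40 without single libraries. Klf4 gained a call with the replicate block (0.94), pseudocount 5 (0.73), no filter (0.94), TMM (0.96), edgeR (1.15) and DESeq2 (1.15). It stayed uncalled with pseudocount 0.5 (0.98) and quantile normalization (0.50), and ran from 0.80 to 1.21 without single libraries. Klf6 gained one with the replicate block (-0.27), and ran from -0.36 to -0.20. Klf11, never called, turned to -0.092 with quantile normalization and ran from -0.090 to 0.34. The block changed no other member's call. Members called higher numbered 2, but 1 with a mean of at least 50 or quantile normalization, and 1 to 3 without single libraries. With the block, genes called lower were 1979 in place of 1143, and list genes called higher 17. Within pairs the Ikzf2 difference of 4.42 gave an exact permutation p of 0.0625, the smallest that 32 assignments allow.

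For 52 other genes, 917 of 987 alternative values kept direction and side of the threshold, 26 lost a call, 17 gained one and 27 turned sign. None of the genes that turned was called. With quantile normalization Btg1 turned to 0.0866, Pik3r1 to 0.052, Sin3a to 0.067, Ski to 0.059 and Sp1 to 0.014. Jund turned to -0.017 with edgeR and -0.026 with DESeq2, and Il7r to -0.00341 with DESeq2. Without single libraries, Klf16 ran from -0.13 to 0.046, Ctbp1 from -0.12 to 0.0026, Il7r from -0.25 to 0.31, Jund from -0.15 to 0.18, Pik3r1 from -0.18 to 0.069, Rbbp4 from -0.13 to 0.011, Sin3a from -0.065 to 0.031 and Ski from -0.061 to 0.031. The cause was not tested. Depth limits Klf4, Klf8 and Klf12, for which 38, 18 and 44 reads were counted over the 5 Helios- libraries.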

Other observations

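Some genes near the Kruppel-like factors varied more with the replicate number than with the sort. Il7r, the receptor gene of a survival cytokine, had 2427, 3631, 1575, 909 and 1014 normalized counts in Helios+ libraries 1 to 5, against 2653, 3606, 1610, 870 and 867 in Helios- libraries 1 to 5. Library 2 was the highest in both groups, as it was for Klf9, Klf11 and Pik3ip1. The coefficient of variation of Klf11 was 26.4% in Helios+ and 48.1% in Helios- libraries. These shared orders are values only, and what the replicate numbers have in common was not tested.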
